A study of Capra hircus with 9 samples.

Results

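Maternal mRNAs retained more in SCNT embryos were defined by their level in 3 libraries of goat embryos: high at the two-cell stage after in vitro fertilization (IVF-2c), low at the eight-cell stage after in vitro fertilization (IVF-8c) and less low in eight-cell embryos made by somatic cell nuclear transfer (SCNT-8c). A transcript was taken when it had an accession starting with XM_ (a RefSeq model mRNA), at least 5 FPKM in IVF-2c, a log2 ratio of IVF-2c over IVF-8c above 2, a log2 ratio of SCNT-8c over IVF-8c above 1, and a log2 ratio of SCNT-8c over IVF-2c not above 2. FPKM is the number of fragments scaled to transcript length and to the library's mapped fragments, and 0.1 FPKM was added to each value before a ratio was taken. The rule found 148 of 29872 XM_ transcripts, which is 2.00% of the 7391 with at least 5 FPKM in IVF-2c. All 3 libraries were used to choose the members, so their levels are a description and carry no test.

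IVF embryos came from oocytes fertilized in vitro, and both IVF and SCNT embryos were grown in the same culture medium. For SCNT, enucleated oocytes were fused with serum-starved goat fetal fibroblasts of 1 female fetus and activated with ionomycin and 6-DMAP, so all SCNT embryos share 1 donor cell source. Each condition is 1 library from pooled embryos, so there is no replicate error on any value and no p-value is given. The only library of an earlier stage is IVF-2c, so SCNT-8c too is compared with IVF embryos. Fell, kept and left in SCNT-8c mean its level relative to IVF-2c, not a change followed within SCNT embryos. Whether the RNA in SCNT-8c is maternal or newly made was not tested. Where 3 values are given in a row, they stand for IVF-2c, then IVF-8c, then SCNT-8c. The other 6 libraries of the series, from transfected fibroblasts, list genes by running numbers and were not used here.

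The oocyte stores mRNAs that carry the embryo through its first divisions. These maternal mRNAs are shortened at their poly(A) tails and degraded in waves, partly by maternal factors and partly after the embryo's own genome becomes active, which in goats takes place mainly at the eight-cell stage. In SCNT the donor nucleus has to take over this programme in the same ooplasm. A lower FPKM in a pool can reflect degradation, less RNA of this kind per embryo or more of all other RNA, and these cannot be told apart in such data.

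The mRNA values summed to 1395697, 1128122 and 1084391 FPKM. The depth of the libraries is unknown, so counting intervals cannot be set. Over the 7391 mRNAs with at least 5 FPKM in IVF-2c, the median log2 ratio was 0.56 for IVF-2c over IVF-8c and 0.07 for SCNT-8c over IVF-8c. The mRNAs that fell and were not retained (361) held 29.6% of all FPKM in IVF-2c but 0.323% in IVF-8c. Nearly all of that share was 1 transcript without a gene match, XM_013971491.1, which had 391451 FPKM in the two-cell library but 0 in IVF-8c as in SCNT-8c, and the other 360 held 1.52%. Scaling the libraries by median ratios lowers the log2 ratio of IVF-2c over IVF-8c by about 0.38 and that of SCNT-8c over IVF-8c by about 0.05, except near 0 FPKM, where the added 0.1 FPKM makes the shift differ. Markers of other cells that a pool could hold had lower sums than those of the oocyte, though the lists differ in length and in genes found. The 10 of 15 fibroblast markers found summed to 152.1, 89.8 and 104.9 FPKM, mostly from DCN. POSTN (0, 0.369 and 0.945 FPKM), THY1 (0, 1.52 and 1.05 FPKM) and PDGFRA (0, 2.77 and 2.41 FPKM) were above 0 in both eight-cell libraries only. LUM rose (3.56, 9.53 and 15.7 FPKM) and FN1 fell (24.4, 10.7 and 14.6 FPKM), so these markers differed in direction. The 7 of 11 cumulus cell markers found summed to 68.2, 64.5 and 88.6 FPKM, with INHA at 0 in all 3 libraries and FSHR at 0 in IVF-2c and SCNT-8c. Within that sum TNFAIP6 was at 2.22, 26.6 and 51.2 FPKM and STAR at 47.2, 11.4 and 12.4 FPKM, so the markers moved in opposite directions. The 2 of 6 sperm markers found stayed under 5 FPKM in sum. The 10 of 19 oocyte markers found summed to 17202, 10033 and 11918 FPKM, mostly from BTG4 (10551, 7830 and 9371 FPKM), with none at 0. No gene of these 4 lists was among the retained mRNAs. Only 1 fibroblast, 2 cumulus cell and 0 sperm marker transcripts were XM_ ones with at least 5 FPKM in IVF-2c. With 1.26% of matched mRNAs retained, a count of 0 was nearly fixed in advance for those lists. The part of fibroblast, cumulus cell and sperm RNA in the results was not tested.

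The retained mRNAs had a median level of 11.8 FPKM in IVF-2c. The median was 1.37 FPKM in IVF-8c, whereas SCNT-8c had 5.46 FPKM. Levels ranged from 5.07 to 1555 FPKM in IVF-2c, while IVF-8c ran from 0 to 256.0 FPKM and SCNT-8c from 0.539 to 609.7 FPKM. Most were not abundant: 107 of the 148 were under 20 FPKM in IVF-2c, 66 of them under 10 FPKM, and 11 reached 100 FPKM. They made up 0.51%, 0.0788% and 0.346% of all FPKM in the table. The 10 highest members held 67.2% of the members' summed IVF-2c level.

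Relative to IVF-2c, a median of 13.0% of the level was left in IVF-8c and 43.3% in SCNT-8c. The members differed widely in how much SCNT-8c kept. In 17 the SCNT-8c level was also below IVF-2c by a log2 ratio above 2. In 74 it was below by a log2 ratio between 1 and 2, and in 43 by less than 1. In the remaining 14, SCNT-8c was above IVF-2c, so the word retained does not describe them. With the libraries scaled by median ratios, 22 of the 148 were above IVF-2c. The log2 ratio of SCNT-8c over IVF-8c had a median of 1.66, lay between 1 and 2 in 92 members and exceeded 3 in 37.

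**Figure D1:**
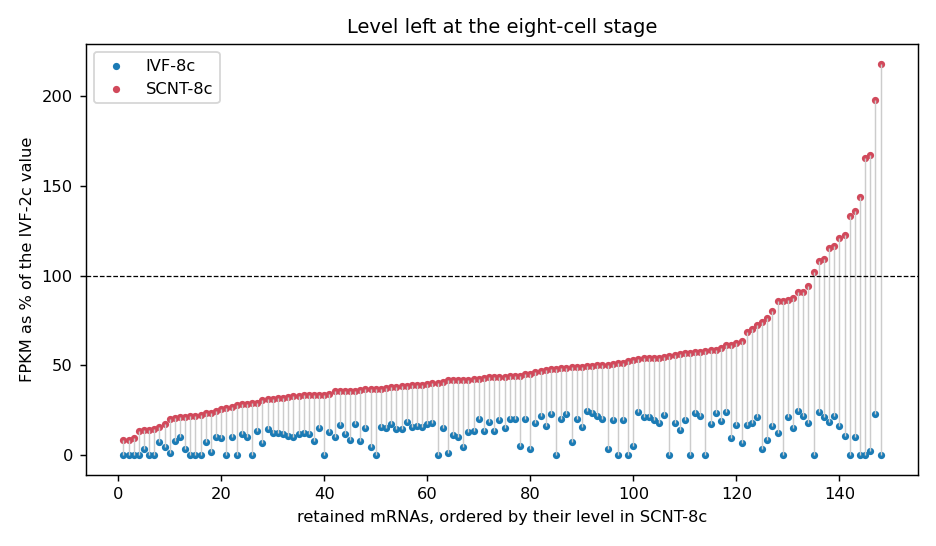
Level left at the eight-cell stage in the 148 retained mRNAs, as the FPKM in IVF-8c (blue) and SCNT-8c (red) in percent of the IVF-2c value, 1 library per condition, with the members ordered by their SCNT-8c level and the dashed line at 100%. The blue points stay under 24.4% by the rule, and the red points run from 8.34% to 218% with 14 above the line.

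Very low IVF-8c values stand behind the largest ratios. The IVF-8c value was exactly 0 in 15 members and above 0 but under 0.1 FPKM in 14 others, so the added 0.1 FPKM sets the size of their ratios. The 119 members at 0.1 FPKM or more in IVF-8c had a median log2 ratio of SCNT-8c over IVF-8c of 1.43. Whether a value of 0 is a failed estimate is not given in the sources used here. The 15 members listed at 0 in IVF-8c had between 0.539 and 344.9 FPKM in SCNT-8c, with a median of 2.55 FPKM. Of these, XM_013977346.1 had the highest SCNT-8c level, against 158.3 FPKM in IVF-2c, so that 218% of its two-cell level was present. XM_013973832.1 had the highest two-cell level of the 15, with 600.3 FPKM in IVF-2c and 289.0 FPKM in SCNT-8c.

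The limits of the rule cut through a continuum. Just inside the limit of 5 FPKM were XM_013977316.1 and XM_013976441.1, at 5.07 and 5.09 FPKM in IVF-2c. Just outside it were XM_013972398.1 and XM_005679318.2, at 4.93 and 4.88 FPKM. For the fall in IVF-8c, the RAD17 transcript XM_013972749.1 and XM_005685712.2 were inside at log2 ratios of 2.01 and 2.02. XM_013973568.1 and XM_013973654.1 were outside at 1.998 and 1.98. For SCNT-8c over IVF-8c, XM_005685712.2 and XM_013970872.1 were inside at 1.01 and 1.02. A transcript of KDM1A, a histone demethylase, was outside with XM_013974469.1, at 0.996 and 0.994. The limit on SCNT-8c over IVF-2c left out 0 transcripts.

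Of the 7391 mRNAs, 509 (6.89%) fell in IVF-8c by a log2 ratio above 2, and the 148 retained mRNAs were 29.1% of these. The other 361 that fell had medians of 16.8, 3.10 and 3.83 FPKM. These mRNAs kept a median of 19.5% of the IVF-2c level in IVF-8c and 23.8% in SCNT-8c. Among all 7391, SCNT-8c was above IVF-8c by a log2 ratio over 1 in 269 (3.64%) and below it by as much in 240 (3.25%). The balance of these counts turned with median-ratio scaling, to 206 above and 226 below.

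The same rule with both eight-cell libraries exchanged gave a reverse set of mRNAs that fell in SCNT-8c and stayed higher in IVF-8c. It held 88 mRNAs, 1.19% of the 7391 and 23.7% of the 371 (5.02%) that fell in SCNT-8c. The reverse set mirrored the members in level, with medians of 8.96, 4.05 and 1.14 FPKM, and a median of 46.6% left in IVF-8c and 12.9% in SCNT-8c. More mRNAs were thus retained in SCNT-8c than in IVF-8c, 148 against 88, and no other library repeats either count. With the libraries scaled by median ratios the counts were 94 and 58, with 1 FPKM added in place of 0.1 they were 90 and 39, and in XM_ transcripts with a RefSeq gene, summed per gene, they were 16 and 21 genes. Among transcripts that could be matched to a RefSeq gene the excess was absent, with 45 retained and 48 in the reverse set, and it lay in the 103 retained and 40 reverse transcripts without a match.

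**Figure D2:**
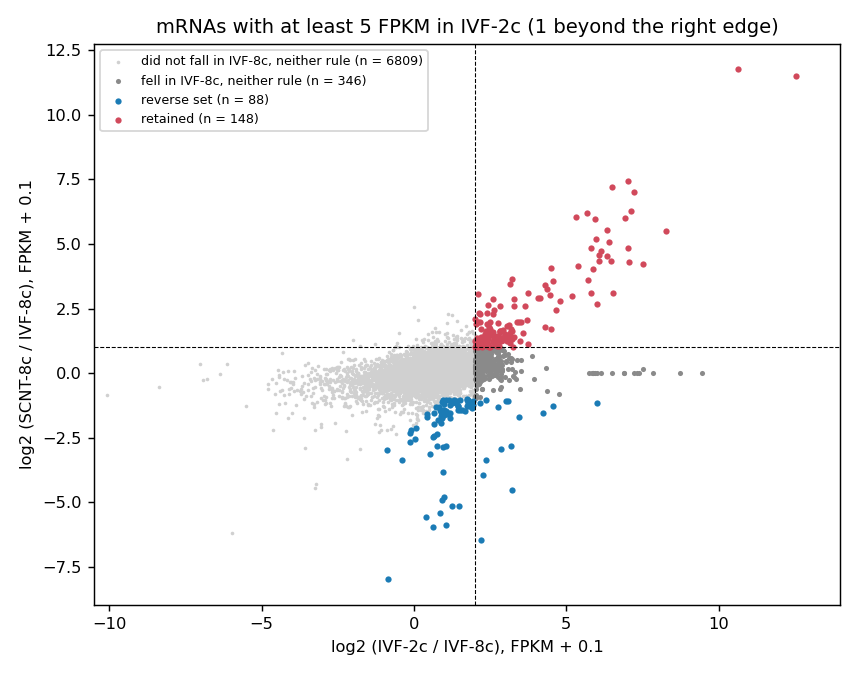
Log2 ratio of SCNT-8c over IVF-8c against that of IVF-2c over IVF-8c, on FPKM + 0.1, for the 7391 mRNAs with at least 5 FPKM in IVF-2c, each point 1 transcript, with dashed lines at the limits of 2 and 1. The 148 retained mRNAs (red) fill the upper right by definition, the 88 of the reverse set (blue) lie below, and 346 others (dark grey) fell in IVF-8c under neither rule. 1 transcript lies beyond the right edge.

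A gene name was found for 45 members (30.4%), of which 43 transcripts of 39 genes had a symbol other than a LOC number. Names are those RefSeq gives for ARS1.2 to the same accession, whatever its version. The share with a match was 31.0% in the other 361 mRNAs that fell and 48.3% in all 7391. The most abundant members had no match. The first, XM_013962362.1, had 1555, 256.0 and 609.7 FPKM. The next, XM_013968197.1, had 950.8, 47.7 and 505.7 FPKM, so that 5.02% of its IVF-2c level was left in IVF-8c and 53.2% in SCNT-8c.

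The named members are described by what they are known to do, which is an ordering and not a tested grouping. AURKC, the Aurora kinase of the chromosomal passenger complex that corrects kinetochore attachments in oocytes, was at 152.5, 20.01 and 64.2 FPKM (XM_005693002.2, log2 ratio of SCNT-8c over IVF-8c 1.68). Its IVF-8c level was 13.1% and its SCNT-8c level 42.1% of that in IVF-2c. A transcript of RAD17, which loads the checkpoint clamp at damaged DNA, was at 7.40, 1.77 and 7.98 FPKM. The SCNT-8c value of RAD17 was thus close to its two-cell value.

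SIN3A, the scaffold of a histone deacetylase co-repressor, was at 41.6, 1.81 and 15.4 FPKM (XM_005695121.2). This is a log2 ratio of SCNT-8c over IVF-8c of 3.02, with 4.34% of the IVF-2c level left in IVF-8c and 37.0% in SCNT-8c. MED7, a subunit of the Mediator complex, had a transcript at 9.21, 0.00349 and 15.2 FPKM (XM_013965727.1), and INTS12, a subunit of the Integrator complex, had one at 14.9, 3.40 and 29.4 FPKM (XM_005681341.2). Both were higher in SCNT-8c than in either IVF library. A transcript of RSRC2, an arginine- and serine-rich protein, was at 42.5, 4.66 and 52.2 FPKM (XM_005691390.2), the highest level of the 3 again being in SCNT-8c. FIP1L1, a subunit of the factor that cleaves and polyadenylates pre-mRNA, had a pair of members. XM_005681616.2 was at 22.1, 0.0708 and 4.75 FPKM and XM_005681617.2 at 6.80, 0.0649 and 2.83 FPKM. In both, the level in IVF-8c was under 0.1 FPKM. XPOT, the export receptor for tRNA, was at 11.8, 0.603 and 5.22 FPKM (XM_013963896.1).

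CCL25, a chemokine known for guiding T cells to the thymus and gut, had 4 members. The highest, XM_005682417.2, was at 152.4, 22.8 and 56.1 FPKM. The other CCL25 members, XM_005682418.2, XM_013965201.1 and XM_013965200.1, were at 105.3, 104.5 and 85.0 FPKM in IVF-2c. All 4 kept between 36.8% and 41.0% of the IVF-2c level in SCNT-8c and between 14.4% and 15.5% in IVF-8c, and they come from 1 gene, so they are not 4 independent measurements. KNG1, the precursor of bradykinin, was at 28.8, 6.68 and 14.1 FPKM (XM_005675157.2). KNG1 is next to another member, HRG, among the protein-coding genes of the assembly ARS1.2. Among members matched to a RefSeq gene, this was the single pair within 3 genes of each other.

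ERGIC2, which acts in transport between the endoplasmic reticulum and Golgi, was at 27.6, 5.05 and 31.8 FPKM (XM_005680706.2). SSR2, a subunit of the translocon-associated protein complex, was at 14.2, 1.36 and 8.74 FPKM (XM_005677365.2). AGR2, a protein disulfide isomerase of the endoplasmic reticulum, was at 9.06, 1.39 and 7.94 FPKM (XM_005678997.2). In these 3 transcripts SCNT-8c kept at least 61.6% of the IVF-2c value. PRR7, a proline-rich transmembrane adaptor, was the most abundant member with a name, at 313.8, 75.2 and 191.8 FPKM (XM_013965387.1). TUBD1, the delta tubulin of centrioles, was at 19.8, 1.499 and 9.72 FPKM (XM_005693129.2), and NDUFAF7, an assembly factor of respiratory complex I, at 6.07, 1.42 and 3.55 FPKM (XM_005686496.1).

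**Figure D3:**
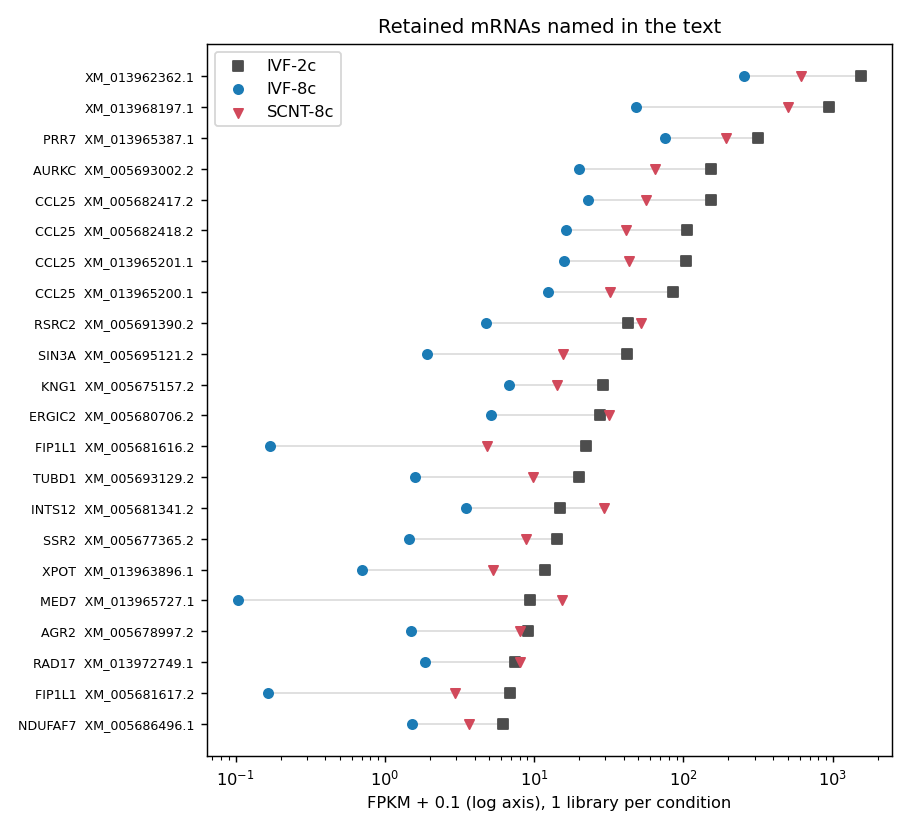
FPKM + 0.1 on a log axis for IVF-2c (squares), IVF-8c (circles) and SCNT-8c (triangles), 1 library each, for 22 retained mRNAs chosen by the rule for named genes. In RSRC2, ERGIC2, INTS12, MED7 and RAD17 the triangle lies to the right of the square, and in the other 17 between circle and square.

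Many genes have several transcripts in the table, and a transcript can be low in IVF-8c while another of the same gene is not. Of the 45 matched members, 37 (82.2%) belonged to a gene with more than 1 matched transcript, against 42.1% of all matched mRNAs with at least 5 FPKM in IVF-2c, 37.5% of the other matched mRNAs that fell, and 70.8% of the matched reverse set. FPKM were therefore summed over all matched transcripts of each of the 41 member genes and the rule was applied to the sums. It was met by 15 genes and not met by 26, and with the libraries scaled by median ratios by 7 of the 41. The genes were then divided by a limit chosen after their values were seen. In 28 of the 41 genes another matched transcript reached 1 FPKM in a library. Of these 28, only AURKC and CMC4 met the rule as a sum. The 13 genes without another such transcript all met it, since the sum is then nearly the retained transcript alone.

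In the 28 genes, the other transcripts together were above the retained one in 14 genes in IVF-2c, in 25 genes in IVF-8c and in 18 genes in SCNT-8c. The summed level had a median log2 ratio of 1.06 for IVF-2c over IVF-8c and of 0.35 for SCNT-8c over IVF-8c. The rule chose the retained transcripts for a low IVF-8c value. A count that is highest in IVF-8c, and sums with smaller ratios than the members, tend to follow from that choice. In 8 of the 28 the summed level was lower in SCNT-8c than in IVF-8c, in 17 it was higher by a log2 ratio up to 1, and in 3 by more. Of 25 other transcripts of member genes with at least 5 FPKM in IVF-2c, 0 fell in IVF-8c by a log2 ratio above 2. The share over all matched mRNAs was 4.40%, so a count of 0 in 25 is near it. An XM_ transcript that fell and was retained would be a member, so such ones are left out by the choice. The median log2 ratio of SCNT-8c over IVF-8c in the 25 was -0.16. FPKM of transcripts that share exons are estimates of how fragments divide among them, and the part of this division in the members' values was not tested.

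The sums of single genes show what the counts hold. In RSRC2 the retained transcript had 25.6% of the gene's IVF-2c level. The sum over its 6 matched transcripts was 166.1, 440.6 and 330.5 FPKM, higher in both eight-cell libraries than in IVF-2c. One other RSRC2 transcript, XM_005691393.2, had 0.332, 147.8 and 39.0 FPKM. MED7 as a gene was at 40.8, 49.3 and 59.6 FPKM, TUBD1 at 34.4, 43.3 and 38.1 FPKM and INTS12 at 146.7, 86.4 and 79.8 FPKM. ERGIC2 (394.6, 288.2 and 274.2 FPKM) and FIP1L1 (55.8, 34.4 and 33.1 FPKM) were at nearly the same summed level in both eight-cell libraries. In these 6 genes the summed level did not meet the rule. Nor did it in XPOT (25.8, 21.7 and 28.7 FPKM), SSR2 (35.5, 21.8 and 27.0 FPKM), KNG1 (42.4, 16.2 and 27.5 FPKM), NDUFAF7 (61.7, 17.8 and 29.6 FPKM) or RAD17 (65.6, 53.0 and 58.5 FPKM). AGR2 as a gene was at 23.2, 6.004 and 23.4 FPKM, missing the limit on the fall in IVF-8c with a log2 ratio of 1.93 but at a log2 ratio of SCNT-8c over IVF-8c of 1.95.

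**Figure D4:**
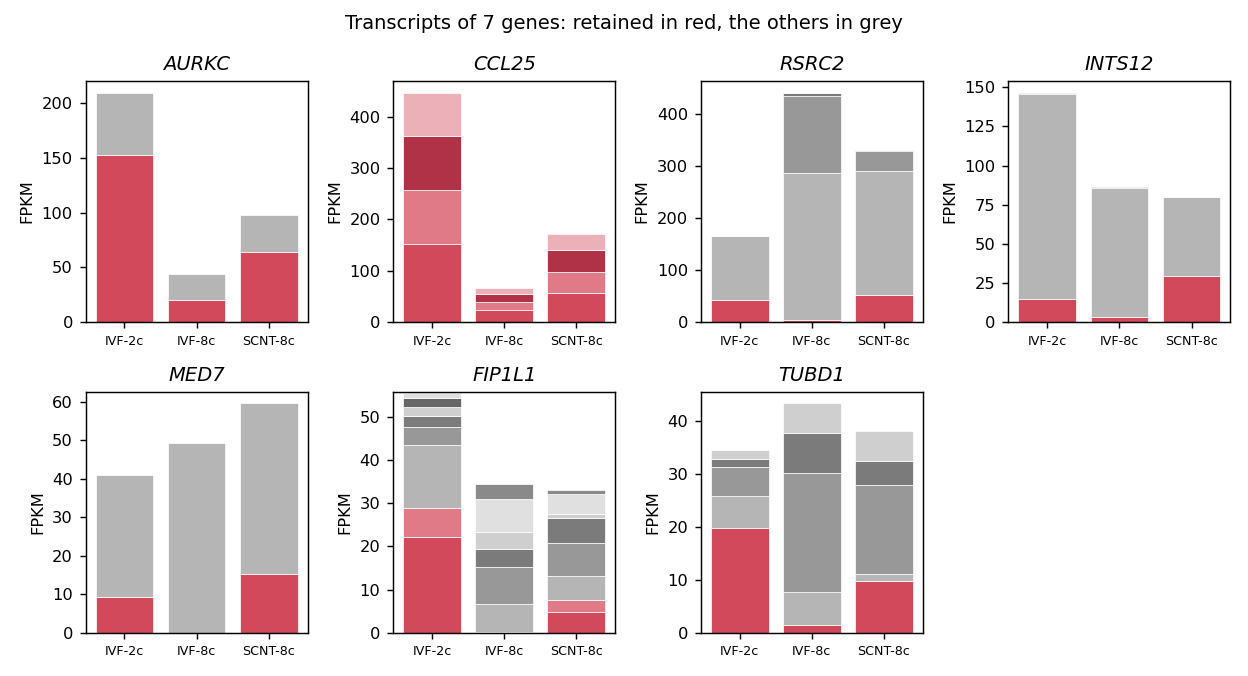
FPKM of the matched transcripts of 7 genes, stacked per library (IVF-2c, IVF-8c, SCNT-8c), with retained transcripts in shades of red and the other transcripts in grey. In AURKC and CCL25 the whole column is low in IVF-8c and higher in SCNT-8c, whereas in RSRC2, INTS12, MED7, FIP1L1 and TUBD1 the red part is smaller in IVF-8c than in SCNT-8c but the whole columns do not meet the rule.

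**Figure D5:**
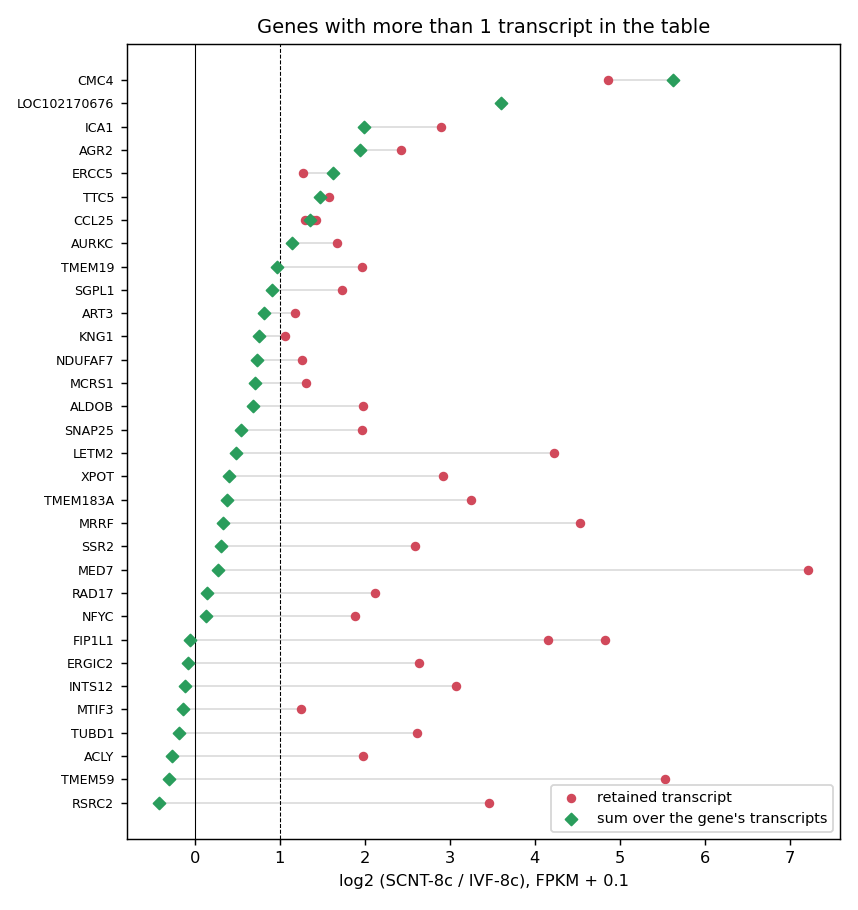
Log2 ratio of SCNT-8c over IVF-8c on FPKM + 0.1 for 32 member genes with more than 1 matched transcript. Each retained transcript is red, the sum over the gene's matched transcripts a green diamond, and the dashed line is at the limit of 1. The sums shown have a median of 0.52, and 8 of 32 lie above the limit.

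The genes that met the rule as a sum include several outside the rule for named genes, and these were named after their values were seen. With the libraries scaled by median ratios, 7 member genes met it. That scaling lowers the log2 ratio of IVF-2c over IVF-8c by about 0.38. It takes PRR7 (2.06), HRG (2.09), ERCC5 (2.19), AURKC (2.25) and TTC5 (2.31) below the limit of 2, but not CCL25 (2.73) or SIN3A (4.45). The same scaling takes CMC4 and LOC102170676 under 5 FPKM in IVF-2c, and THEM6 (1.02) under the limit on SCNT-8c over IVF-8c. AURKC as a gene was at 209.9, 44.2 and 97.6 FPKM, and CCL25 at 447.1, 67.1 and 172.5 FPKM. Of the 30147 mRNA rows, 13518 have a gene match, so a gene may have further transcripts that are not counted. SIN3A and PRR7 have 1 matched transcript each. BRE (10.03, 1.58 and 4.94 FPKM), a member of a BRCA1-containing complex, and HRG (13.0, 2.97 and 6.23 FPKM), a histidine-rich plasma glycoprotein, also have 1. ERCC5, the nuclease that cuts 3′ of the lesion in nucleotide excision repair, was at 6.26, 1.29 and 4.18 FPKM as a gene. TTC5 (11.3, 2.203 and 6.32 FPKM) and ICA1 (10.9, 1.07 and 4.58 FPKM) also met it, and THEM6 was at 6.57, 1.103 and 2.34 FPKM. FXYD6, a regulator of the sodium pump, was listed at 0 in IVF-8c, with 6.89 FPKM in IVF-2c and 2.55 FPKM in SCNT-8c. CMC4, a small mitochondrial protein, had 5.79 FPKM in IVF-2c against 4.84 in SCNT-8c, and BHLHA9, a transcription factor of limb development, had 6.30 and 0.539 FPKM in the same libraries, both also listed at 0 in IVF-8c. The last of the 15 were LOC102176041 (16.8, 2.71 and 13.51 FPKM) and LOC102170676, which was listed at 0 in IVF-8c and had 5.10 FPKM in IVF-2c and 1.12 FPKM in SCNT-8c.

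Over all 3179 RefSeq genes with a summed level of at least 5 FPKM in IVF-2c, 17 (0.535%) met the rule and 23 met the reverse. Beside the 15 member genes these were STRADA and CD81. CD81, a tetraspanin of the oocyte surface, was at 15646, 1969 and 4699 FPKM, and is not a member because its accession is a curated NM_ one. Of the 81 NM_ transcripts with at least 5 FPKM in IVF-2c, CD81 and CDK2 (42.4, 4.97 and 10.09 FPKM), a cyclin-dependent kinase, met the rule. URM1 and KISS1 met the reverse. Summed over its matched transcripts, CDK2 did not meet the rule.

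Lists of genes with known roles hold matched transcripts, of which 45 of 3570 (1.26%) were retained and 157 (4.40%) fell in IVF-8c, so that most lists are too short for a count of 0 or 1 to differ from that share. Of these lists, 2 of 46 tested transcripts on a list of meiosis and cell cycle genes were members, AURKC among them, and 3 of the 46 fell in IVF-8c. The respiratory chain list had 1 member, NDUFAF7, of 44 tested. On a list of oocyte and maternal effect genes, 0 of 16 tested transcripts were members and 3 fell in IVF-8c. This list had a median log2 ratio of 1.32 for IVF-2c over IVF-8c and of 0.11 for SCNT-8c over IVF-8c, against 0.56 and 0.07 for all 7391. MOS, a kinase that holds the egg in metaphase, was at 1724, 396.6 and 689.9 FPKM and came under the limit for SCNT-8c, and ZAR1, a maternal effect gene, was at 201.9, 27.2 and 30.7 FPKM.

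No member came from the lists for mRNA decay (21 tested transcripts, of which 0 fell in IVF-8c), translation of stored mRNA (7 and 0), Wnt signalling (11 and 0), TGF-beta and BMP signalling (6 and 0), genome activation (2 and 0) or ribosomal proteins (62 and 0). Nor did one come from DNA and histone modification (13 tested and 2 that fell), the ubiquitin system (58 and 1), zinc finger transcription factors (57 and 1), kinesins and centrosome (54 and 0) or solute carriers (47 and 2). For histones 0 genes were matched by symbol. The lists describe only the matched transcripts, and 103 of the 148 members have no match.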

How the data were processed

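RNA of pooled goat embryos was amplified with a SMART-Seq kit and sequenced as 3 libraries, 1 per condition. The authors deposited FPKM values for 30147 mRNA transcripts named by RefSeq accession. The submitters' processing notes name TopHat2 2.0.12, Bowtie2 2.2.3, Cufflinks 2.1.1 and Cuffdiff without a role. The genome build and annotation release are not given in the sources used here, and the depth is unknown. The deposited lncRNA and fibroblast tables were not used.

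Log2 ratios of FPKM + 0.1 were computed in pandas 2.3.3 under Python 3.11.15 (numpy 2.4.6). The code of the rule was checked on simulated data without noise, with planted transcripts. That check does not show how the rule behaves on noisy libraries. No test was run with 1 library per condition. Accessions were looked up among the 28911 genes RefSeq lists for ARS1.2, which held 3 of the 148 members with their accession version and 45 without. Gene sums cover only matched transcripts.

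The members, the lists and the rule for named genes were chosen with earlier results of these data known. Named were, among members with a symbol, the 10 highest in IVF-2c, the 10 largest ratios of SCNT-8c over IVF-8c with at least 5 FPKM in SCNT-8c, the 6 highest ratios of SCNT-8c over IVF-2c, members on a list and genes with 2 or more members, then the 2 highest members without a symbol and the 2 transcripts on each side of a limit. A planned comparison of protein lengths and promoter sequences was not analysed here, since no sequences were used. Other pseudocounts, scaling, minima and fold limits were tried. The values of 1 named member are not reported here, though counts include it.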

Additional observations from a re-analysis of the deposited data

Results flagged for a closer look

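In 5 of the members with a name, the eight-cell libraries lay on opposite sides of the two-cell level: IVF-8c was lower than IVF-2c and SCNT-8c higher. The log2 ratio of SCNT-8c over IVF-2c was 0.98 in INTS12, 0.72 in MED7, 0.29 in RSRC2, 0.21 in ERGIC2 and 0.11 in RAD17, in each case for the retained transcript. The difference was not tested, since each condition is 1 library. In the sums over all matched transcripts of a gene, INTS12, ERGIC2 and RAD17 were lower in both eight-cell libraries than in IVF-2c, and MED7 and RSRC2 were higher in both.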

How the results depend on the processing

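The rule gave 148 retained mRNAs and 88 in the reverse set. With a pseudocount of 1 FPKM these were 90 and 39, with libraries scaled by median ratios 94 and 58, with a minimum of 1 FPKM in IVF-2c 424 and 302, with a minimum of 10 FPKM 82 and 42, and with a log2 ratio between the eight-cell libraries above 2, 56 and 30. The FPKM of XM_ transcripts summed per RefSeq gene gave 16 and 21 genes. This setting also leaves out transcripts without a gene match, and matched transcripts alone were 45 and 48 before summing. The median log2 ratio of SCNT-8c over IVF-8c in retained mRNAs was 1.66, and the median share of the IVF-2c level left in SCNT-8c was 43.3%. They became 1.65 and 43.7% with a pseudocount of 0.01 FPKM, 1.55 and 43.7% with one of 1 FPKM, 1.93 and 49.8% after median-ratio scaling, 1.90 and 48.6% with a minimum of 1 FPKM, 1.61 and 44.2% with one of 10 FPKM, 1.57 and 44.1% without transcripts at 0 in IVF-8c, 3.59 and 52.1% with the log2 limit of 2, and 1.60 and 44.2% in gene sums. Each setting chose its own members, so these medians follow the choice. The 15 member genes that met the rule as a sum were 7 after median-ratio scaling and 10 with a pseudocount of 1 FPKM, alternatives chosen after seeing the data. Leaving out transcripts at 0 in either eight-cell library, also chosen then, left 133 and 75. In the 23 transcripts chosen by the rule for named genes, the rule fixes the direction, and 3 log2 ratios of SCNT-8c over IVF-8c came to 1 or less with a pseudocount of 1 FPKM. No paired analysis was possible because each embryo condition has 1 library. Unknown depth limits all low values, and the 15 retained mRNAs listed at 0 in IVF-8c most.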
